A study of Mus musculus with 18 samples.

Results

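The serine synthesis and one-carbon enzymes were followed here in mouse splenic B cells. They are 8 genes, taken by their Entrez numbers from the 28096 genes counted, and all 8 of 8 passed the expression filter that left 14161 genes for testing. *Phgdh*, *Psat1* and *Psph* encode the 3 enzymes of serine synthesis. *Shmt1* and *Shmt2* encode the cytosolic and the mitochondrial serine hydroxymethyltransferase, and *Mthfd1*, *Mthfd1l* and *Mthfd2* encode enzymes that interconvert folate-bound one-carbon units.

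The libraries were made from B cells isolated from the spleens of C57BL/6 N mice at least 8 weeks old, either WT or *Ubqln1*-/-. The *Ubqln1*-/- mice lack exon 2 of the gene in all cells, since it was removed in the embryonic stem cells from which the line was derived. Cells of each genotype were left without stimulation (resting), or were cultured for 4 hr with an F(ab)2 fragment against IgM (anti-IgM, 10 μg/mL), which crosslinks the B cell receptor, or with 20 μg/mL LPS of *E. coli*, which engages a Toll-like receptor. Each of the 6 groups held 3 libraries, called biological replicates in the labels, and RNA from triplicate wells was pooled for each library. The study made them to learn whether small differences in AKT and NF-κB activation between stimulated WT and *Ubqln1*-/- cells were of consequence.

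Serine is made from the glycolytic intermediate 3-phosphoglycerate by PHGDH, which oxidizes it, PSAT1, which transfers an amino group from glutamate, and PSPH, which removes the phosphate. SHMT1 and SHMT2 then split serine into glycine and a one-carbon unit carried by tetrahydrofolate. In mitochondria MTHFD2 oxidizes this unit and MTHFD1L releases it as formate, and in the cytosol MTHFD1 recaptures formate as the one-carbon donor for purine and thymidylate synthesis. The pathway is known for its demand in lymphocytes that prepare to divide.

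The promoter stretches of *Shmt1*, *Shmt2* and *Mthfd2* are shown because *Shmt1* and *Shmt2* are the cytosolic and mitochondrial forms of 1 reaction with unequal responses, and because *Mthfd2* was the member whose levels with anti-IgM and LPS were closest in WT cells. They were read 5′ to 3′ from RefSeq on GRCm38.p6, within the 250 bases before 1 annotated start of each gene and without bases that GENCODE annotates as exon, and capitals mark CCAAT (the CCAAT box) and GGGCGG (the GC box) on either strand.

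Shmt1 (chr11:60811266-60811466, minus strand): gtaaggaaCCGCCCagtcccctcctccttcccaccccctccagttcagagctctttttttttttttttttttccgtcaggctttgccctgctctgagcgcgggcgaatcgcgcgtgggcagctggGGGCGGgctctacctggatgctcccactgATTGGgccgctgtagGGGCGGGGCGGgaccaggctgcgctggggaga
Shmt2 (chr10:127522445-127522694, minus strand): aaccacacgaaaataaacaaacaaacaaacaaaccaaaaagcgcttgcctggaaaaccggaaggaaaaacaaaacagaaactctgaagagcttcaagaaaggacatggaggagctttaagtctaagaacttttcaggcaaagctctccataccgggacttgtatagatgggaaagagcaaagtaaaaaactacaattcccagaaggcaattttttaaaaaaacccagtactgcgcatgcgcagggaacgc
Mthfd2 (chr6:83317607-83317854, minus strand): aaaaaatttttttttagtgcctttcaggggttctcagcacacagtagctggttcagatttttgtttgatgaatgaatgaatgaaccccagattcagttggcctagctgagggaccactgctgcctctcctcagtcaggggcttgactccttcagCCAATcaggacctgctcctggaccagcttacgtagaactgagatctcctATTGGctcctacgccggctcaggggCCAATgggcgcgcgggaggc

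The stretch of *Shmt2* held neither box, that of *Mthfd2* held CCAAT at 3 places, and that of *Shmt1* held both, with 2 overlapping matches to GGGCGG nearest the start. For the 8 genes 9 annotated starts were used, since *Psat1* had 2. The annotated spans of *Mthfd1*, *Mthfd1l*, *Mthfd2* and *Psph* reach further upstream than the starts used, and sequence before those outer ends was not searched. The span of *Mthfd2* runs from 83305704 to 83326011, so the stretch shown lies inside it. Of the 9 windows of 250 bases before them CCAAT was in 6, against 33.8% of the 32851 windows of all genes, and GGGCGG in 5, against 32.7%. The E-box CACGTG, to which MYC binds, was in 0 of the 9 and in 6.02% of all windows. TGATGNAA, the element to which ATF4 binds, was in 0 of the 9 and in 3.45% of all windows. All motifs were searched on both strands, and a match or its lack describes only the letters in these windows.

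Library totals ran from 15368941 to 41072854 counts (median 23257531), and every WT library with LPS was deeper than every *Ubqln1*-/- library with LPS. The 8 genes had between 215 and 29876 counts in a library. *Ubqln1* itself ran from 62.3 to 92.0 RPKM (counts per gene length and library size, the latter scaled here by TMM) in WT libraries and from 24.8 to 34.8 RPKM in *Ubqln1*-/- libraries. The files give 1 count per gene, so the exons these reads came from were not determined. Of 8 B cell markers 7 were in the files, and their summed level was 7200 to 8630 CPM (counts relative to library size) in resting cells of both genotypes, 2376 to 3028 CPM with anti-IgM and 5685 to 6796 CPM with LPS. The 6 T cell markers summed to 41.2 to 67.2 CPM at rest, 122 to 223 CPM with anti-IgM and 31.9 to 48.8 CPM with LPS, of which *Lck* held 30.7 to 222 CPM, while *Cd3e*, *Cd3d*, *Cd3g* and *Cd4* were each at most 0.319 CPM in any library. The 6 myeloid markers summed to 21.7 to 51.0 CPM at rest and 11.1 to 20.9 CPM in stimulated cells, and the 4 dendritic cell markers to 9.59 to 18.0 CPM at rest, 9.65 to 15.0 CPM with anti-IgM and 17.8 to 30.5 CPM with LPS. The 3 plasma cell markers summed to 252 to 465 CPM in WT and 185 to 214 CPM in *Ubqln1*-/- resting cells, 214 to 404 and 154 to 187 CPM with anti-IgM, and 146 to 328 and 98.0 to 130 CPM with LPS. NK cell markers (4 of 4 in the files), erythroid markers (4 of 5) and platelet markers (3 of 3) stayed at or below 0.598, 4.29 and 7.72 CPM. The part of these shifts in the results below was not tested, and in bulk libraries fewer cells of a type and less RNA per cell cannot be told apart.

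To ask how much mRNA of each enzyme the cells held, levels were compared per length, as RPKM. *Shmt2* had the highest level in every group and *Phgdh*, the first enzyme of serine synthesis, the lowest. In resting WT cells *Shmt2* was at 99.6 ± 23.6 RPKM (SD, n = 3) and *Phgdh* at 8.75 ± 1.49 RPKM (SD, n = 3). Between them lay *Mthfd2* (29.2 ± 6.25), *Psat1* (27.2 ± 8.12), *Mthfd1* (23.1 ± 4.45), *Mthfd1l* (22.5 ± 5.06), *Psph* (15.8 ± 2.98) and *Shmt1* (9.36 ± 1.72 RPKM, all SD, n = 3). The values of *Mthfd2*, *Psat1*, *Mthfd1* and *Mthfd1l* overlapped, as did those of *Shmt1* and *Phgdh*. *Psph* overlapped *Psat1*, *Mthfd1* and *Mthfd1l*, whereas the lowest *Shmt2* library lay above the highest library of any other member. With anti-IgM the WT order changed to *Shmt2* (363 ± 58.3), *Psat1* (144 ± 41.4), *Mthfd2* (112 ± 24.9), *Mthfd1* (71.5 ± 9.92), *Shmt1* (64.4 ± 6.63), *Mthfd1l* (53.0 ± 8.64), *Psph* (34.7 ± 6.16) and *Phgdh* (24.5 ± 5.05 RPKM, all SD, n = 3). *Psat1* overlapped *Mthfd2* there, *Shmt1* overlapped both *Mthfd1* and *Mthfd1l*, and *Psph* overlapped *Phgdh*. With LPS the WT means were 264 ± 56.9 for *Shmt2*, 112 ± 28.3 for *Mthfd2*, 86.9 ± 26.2 for *Psat1*, 66.2 ± 11.2 for *Mthfd1*, 41.3 ± 6.16 for *Mthfd1l*, 37.9 ± 9.21 for *Shmt1*, 28.2 ± 7.18 for *Psph* and 16.3 ± 4.46 RPKM for *Phgdh* (all SD, n = 3). There *Psat1* overlapped both *Mthfd2* and *Mthfd1*, and *Mthfd1l*, *Shmt1* and *Psph* overlapped each other.

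**Figure D1:**
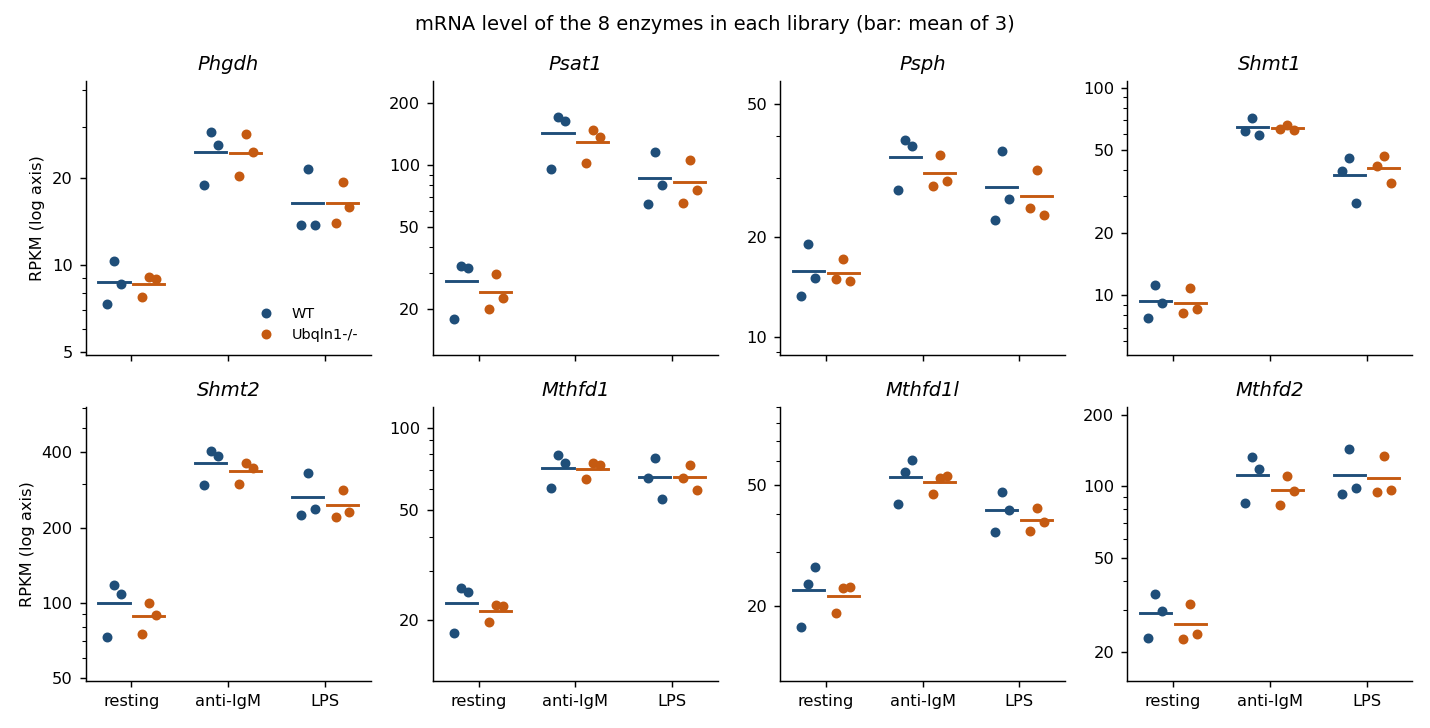
RPKM on a log axis of each enzyme in the 18 libraries, by condition and genotype, with a bar at the mean of 3 libraries. For each gene every stimulated library lies above every resting library of its genotype, and WT and *Ubqln1*-/- points overlap in each condition.

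To determine how stimulation changed the enzymes, stimulated cells were compared with resting cells of the same genotype by edgeR's quasi-likelihood test, with Benjamini-Hochberg adjusted p-values over all 14161 genes and a call at an adjusted p under 0.05. All 8 enzymes were called higher in each of the 4 comparisons. Among all tested genes 32.4% were called higher with anti-IgM in WT cells, 32.9% with anti-IgM in *Ubqln1*-/- cells, 31.2% with LPS in WT cells and 30.6% with LPS in *Ubqln1*-/- cells. The median log2 fold change of the 8 was 1.75 and 1.80 with anti-IgM in WT and *Ubqln1*-/- cells and 1.46 and 1.55 with LPS, while the median over all tested genes was -0.01, -0.02, -0.01 and -0.02. For each of the 8 genes every stimulated library lay above every resting library in all 4 comparisons, as was the case for 33.4% of all tested genes with anti-IgM in WT cells, 35.6% with anti-IgM in *Ubqln1*-/- cells, 31.8% with LPS in WT cells and 33.5% with LPS in *Ubqln1*-/- cells. The WT and the *Ubqln1*-/- comparisons each use 1 set of resting libraries for both stimuli.

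All 3 serine synthesis genes rose with both stimuli. *Psat1* was at 17.8, 32.4 and 31.4 RPKM in the WT resting libraries (replicates 1, 2 and 3, as in all lists of library values), at 96.2, 171 and 164 RPKM with anti-IgM, and at 64.8, 116 and 80.2 RPKM with LPS. In *Ubqln1*-/- cells it was at 19.9, 29.6 and 22.5 RPKM at rest, 102, 148 and 137 RPKM with anti-IgM, and 65.6, 106 and 75.6 RPKM with LPS. Every stimulated library was above the highest resting library, and anti-IgM and LPS libraries overlapped in both genotypes. Its log2 fold change was 2.40 (SE 0.29, adjusted p = 1.38e-06, edgeR) with anti-IgM and 1.67 (SE 0.28, adjusted p = 6.91e-05, edgeR) with LPS in WT cells, and 2.43 (SE 0.29) and 1.78 (SE 0.28) in *Ubqln1*-/- cells. The *Psat1* values are uncertain in 1 respect. The counts of another gene, Entrez 100047252, which has no symbol in the RefSeq table, were 56.9% to 60.7% of the *Psat1* count in all 18 libraries (412 to 6707 counts), and whether reads of a near-identical copy were split between both was not tested.

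*Phgdh*, whose product commits 3-phosphoglycerate to the pathway, was at 7.35, 10.3 and 8.60 RPKM in resting WT libraries, 18.9, 28.7 and 25.8 RPKM with anti-IgM and 13.7, 21.5 and 13.8 RPKM with LPS. The *Ubqln1*-/- values were 7.75, 9.11 and 8.98 RPKM at rest, 20.3, 28.3 and 24.5 RPKM with anti-IgM and 14.0, 19.3 and 15.8 RPKM with LPS. The groups at rest and after stimulation were separate, while the anti-IgM and LPS groups of WT cells overlapped through the second LPS library. The log2 fold changes of *Phgdh* in WT cells were 1.47 (SE 0.20, adjusted p = 6.03e-06, edgeR) with anti-IgM and 0.89 (SE 0.20, adjusted p = 0.000948, edgeR) with LPS. *Psph* had the smallest change with anti-IgM of the 8, from 13.3 to 19.1 RPKM across resting WT libraries to 27.6 to 39.1 RPKM with anti-IgM and 22.4 to 36.2 RPKM with LPS. Its log2 fold changes were 1.12 (SE 0.18) and 0.83 (SE 0.18) in WT cells and 0.99 (SE 0.18) and 0.77 (SE 0.18) in *Ubqln1*-/- cells. Exons of *Cct6a* on the opposite strand cover 10.4% of the annotated *Psph* exon bases, and the library kit did not mark strand, so reads there cannot be assigned to one gene.

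Of the 2 hydroxymethyltransferases, the cytosolic *Shmt1* had the larger log2 fold change in all 4 comparisons. It was at 7.74, 11.2 and 9.17 RPKM in resting WT libraries, 62.2, 71.9 and 59.2 RPKM with anti-IgM and 39.9, 45.9 and 27.8 RPKM with LPS. *Shmt1* in *Ubqln1*-/- cells was at 8.26, 10.8 and 8.57 RPKM at rest, 63.0, 66.2 and 62.5 RPKM with anti-IgM and 42.0, 47.0 and 35.0 RPKM with LPS. The 3 conditions did not overlap in either genotype. Its log2 fold change in WT cells was 2.77 (SE 0.17, adjusted p = 1.60e-09, edgeR) with anti-IgM, the 81st highest of all 14161 tested genes, and 2.01 (SE 0.17, adjusted p = 6.64e-08, edgeR) with LPS, the 215th highest. In *Ubqln1*-/- cells the changes were 2.79 (SE 0.17) and 2.16 (SE 0.17). Exons of *Smcr8* on the opposite strand cover 4.74% of the *Shmt1* exon bases.

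*Shmt2*, the mitochondrial form, was at 72.9, 117 and 108 RPKM in resting WT libraries, 297, 405 and 388 RPKM with anti-IgM and 225, 329 and 238 RPKM with LPS. Its *Ubqln1*-/- libraries held 75.0, 99.8 and 89.4 RPKM at rest, 299, 363 and 347 RPKM with anti-IgM and 221, 284 and 232 RPKM with LPS. Anti-IgM and LPS libraries overlapped in WT cells and were separate in *Ubqln1*-/- cells. The log2 fold changes were 1.87 (SE 0.19, adjusted p = 1.78e-07, edgeR) with anti-IgM and 1.41 (SE 0.18, adjusted p = 5.34e-06, edgeR) with LPS in WT cells, and 1.93 (SE 0.19) and 1.48 (SE 0.18) in *Ubqln1*-/- cells.

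The 3 folate-interconverting enzymes also rose with both stimuli. *Mthfd2*, a mitochondrial dehydrogenase and cyclohydrolase known as low in many resting adult tissues and high in dividing cells, was at 22.8, 35.2 and 29.7 RPKM in resting WT libraries, 84.6, 133 and 119 RPKM with anti-IgM and 92.9, 144 and 98.2 RPKM with LPS. *Mthfd2* in *Ubqln1*-/- libraries was at 22.6, 31.8 and 23.8 RPKM at rest, 83.5, 111 and 95.6 RPKM with anti-IgM and 94.9, 134 and 96.1 RPKM with LPS. Both stimulated groups lay above rest and overlapped each other. Its log2 fold changes were 1.93 (SE 0.22) with either stimulus in WT cells (adjusted p = 7.81e-07 and 1.19e-06, edgeR) and 1.89 (SE 0.22) and 2.06 (SE 0.22) in *Ubqln1*-/- cells.

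*Mthfd1*, the cytosolic trifunctional enzyme, held 17.9, 26.0 and 25.2 RPKM in resting WT libraries, 60.4, 79.5 and 74.7 RPKM with anti-IgM and 65.7, 77.6 and 55.2 RPKM with LPS. Its *Ubqln1*-/- libraries were at 19.5, 22.7 and 22.5 RPKM at rest, 64.9, 74.7 and 73.1 RPKM with anti-IgM and 65.4, 73.4 and 59.3 RPKM with LPS. The log2 fold changes of *Mthfd1* in WT cells were 1.63 (SE 0.15, adjusted p = 5.80e-08, edgeR) and 1.52 (SE 0.15, adjusted p = 2.14e-07, edgeR). *Mthfd1l*, which releases formate in mitochondria, rose from 17.0 to 27.0 RPKM across resting WT libraries to 43.4 to 60.2 RPKM with anti-IgM and 35.1 to 47.4 RPKM with LPS. Its log2 fold changes were 1.23 (SE 0.15) and 0.87 (SE 0.15) in WT cells and 1.24 (SE 0.15) and 0.83 (SE 0.15) in *Ubqln1*-/- cells.

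**Figure D2:**
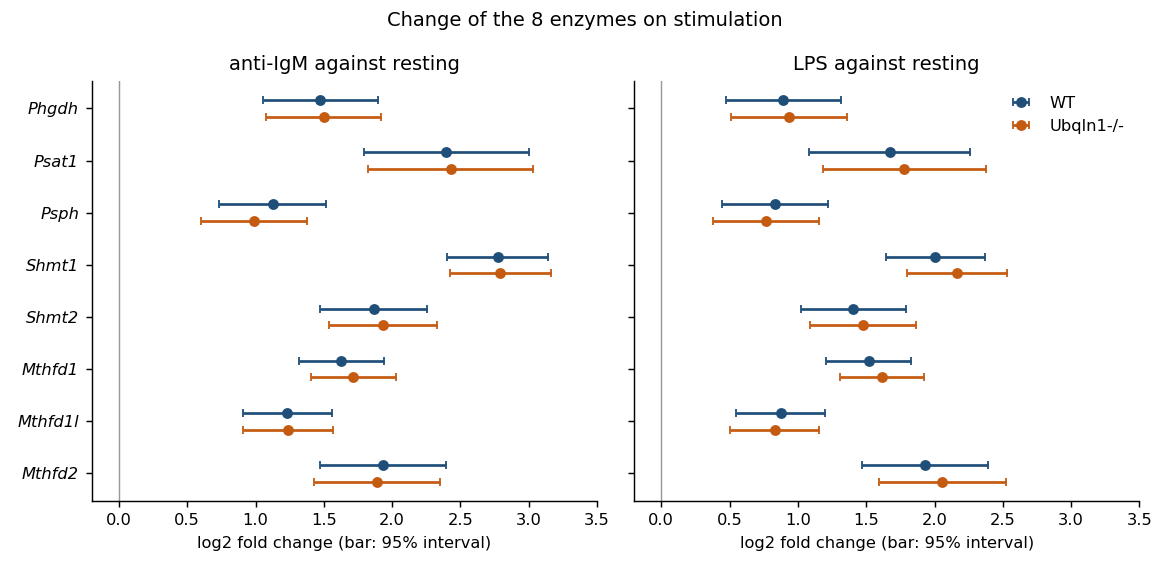
Log2 fold change against resting cells (x axis) of each enzyme in WT and *Ubqln1*-/- cells, with anti-IgM on the left and LPS on the right, and bars for the 95% interval. All intervals lie above 0, and *Shmt1* is highest with anti-IgM in both genotypes.

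At the thresholds the study used, an absolute log2 fold change over 2 and an adjusted p under 0.001, fewer of the 8 passed, all in the higher direction. *Psat1* and *Shmt1* passed with anti-IgM in both genotypes, where 1.72% of all tested genes passed as higher in WT and 1.79% in *Ubqln1*-/- cells. With LPS *Shmt1* passed in WT cells, against 1.36% of all genes as higher, and *Shmt1* and *Mthfd2* passed in *Ubqln1*-/- cells, against 1.22% as higher. *Shmt1* in WT cells (2.01) and *Mthfd2* in *Ubqln1*-/- cells (2.06) lay just inside the fold threshold with LPS, and *Mthfd2* in WT cells (1.93 with each stimulus) just outside it.

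Anti-IgM and LPS were then compared directly within each genotype. By edgeR 3 of the 8 enzymes were called lower with LPS than with anti-IgM in WT cells, *Shmt1*, *Phgdh* and *Psat1*, against 15.0% of all tested genes called lower and 17.4% called higher. In *Ubqln1*-/- cells 2 of 8 were called lower, *Shmt1* and *Phgdh*, against 14.5% called lower and 16.8% called higher, and none of the 8 was called higher in either genotype. The log2 fold change of *Shmt1* was -0.76 (SE 0.16, adjusted p = 0.00114, edgeR) in WT and -0.63 (SE 0.16, adjusted p = 0.00570, edgeR) in *Ubqln1*-/- cells. That of *Phgdh* was -0.58 (SE 0.19, adjusted p = 0.0254, edgeR) and -0.57 (SE 0.19, adjusted p = 0.0324, edgeR), and that of *Psat1* -0.73 (SE 0.27, adjusted p = 0.0484, edgeR) and -0.65 (SE 0.27, adjusted p = 0.0787, edgeR).

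In these comparisons the libraries with the same replicate number deviated together, and the fit with the replicate number as a block gave more calls. With the block 6 of 8 were called lower with LPS in WT cells, against 20.4% of all tested genes, and 6 of 8 in *Ubqln1*-/- cells, against 19.6%. In both genotypes these were *Phgdh*, *Psat1*, *Psph*, *Shmt1*, *Shmt2* and *Mthfd1l*. With the block the adjusted p-values of the 6 (edgeR) ran from 2.20e-06 for *Shmt1* to 0.00635 for *Psph* in WT cells and from 2.60e-05 for *Shmt1* to 0.0392 for *Psph* in *Ubqln1*-/- cells. *Mthfd1* and *Mthfd2* were called in neither fit. With the block the 95% interval of the log2 fold change of *Mthfd2* was -0.17 to 0.15 in WT and -0.00014 to 0.32 in *Ubqln1*-/- cells (adjusted p = 0.104, edgeR), and that of *Mthfd1* was -0.31 to 0.09 and -0.31 to 0.10. Whether *Mthfd1* and *Mthfd2* differ from the other 6 in this respect was not tested.

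**Figure D3:**
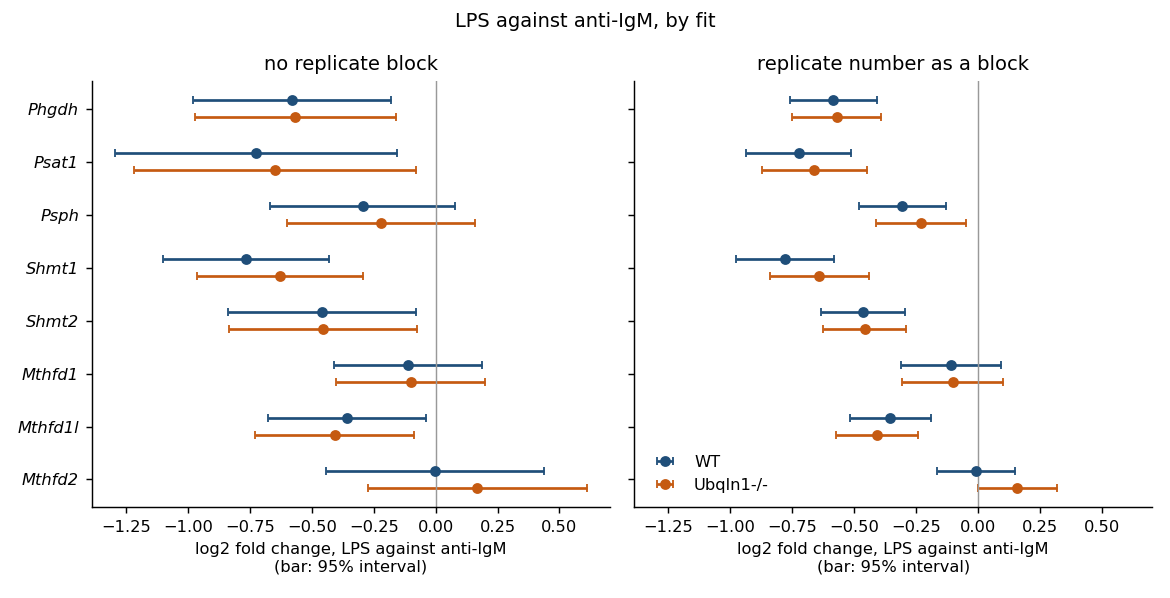
Log2 fold change of LPS against anti-IgM (x axis) for each enzyme in WT and *Ubqln1*-/- cells, without (left) and with (right) the replicate number as a block, with bars for the 95% interval. With the block the intervals of 6 enzymes lie below 0 in both genotypes, and those of *Mthfd1* and *Mthfd2* span 0.

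The calls without the block moved when 1 library was left out. In WT cells *Shmt1* alone remained called without LPS replicate 1, LPS replicate 3, anti-IgM replicate 2 or anti-IgM replicate 3, while 6 were called without LPS replicate 2 and 5 without anti-IgM replicate 1, and between 12.4% and 14.6% of all tested genes were called lower in these fits. In *Ubqln1*-/- cells 1 was called without LPS replicate 1, LPS replicate 3, anti-IgM replicate 2 or anti-IgM replicate 3, and 4 without LPS replicate 2, against 11.4% to 12.5% of all tested genes.

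Cytosolic and mitochondrial enzymes of 1 reaction share the library they are counted in, so their ratio does not depend on its size. The *Shmt2* to *Shmt1* ratio of RPKM was 9.42 to 11.8 in resting WT libraries, 4.77 to 6.55 with anti-IgM and 5.64 to 8.56 with LPS. The *Ubqln1*-/- ratios were 9.08 to 10.4, 4.74 to 5.55 and 5.25 to 6.63. The mean log2 ratio was lower than at rest by 0.91 and 0.87 with anti-IgM and by 0.59 and 0.68 with LPS in WT and *Ubqln1*-/- cells, and stimulated and resting libraries did not overlap. Each of these differences had an exact two-sided permutation p of 0.1, the smallest that 3 against 3 libraries can give, so none could reach 0.05. Over the 12 ratio tests the adjusted value was 0.109.

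The *Mthfd1l* to *Mthfd1* ratio was 0.905 to 1.07 in resting WT libraries, 0.695 to 0.807 with anti-IgM and 0.534 to 0.749 with LPS. It was 0.967 to 1.03, 0.707 to 0.733 and 0.541 to 0.636 in *Ubqln1*-/- libraries, again without overlap with rest (exact permutation p = 0.1 in all 4 comparisons, adjusted 0.109). The *Mthfd2* to *Mthfd1* ratio was 1.18 to 1.36 in resting WT libraries, 1.40 to 1.67 with anti-IgM and 1.41 to 1.86 with LPS. Its mean log2 ratio was higher than at rest by 0.29 with anti-IgM and 0.40 with LPS in WT cells and by 0.44 with LPS in *Ubqln1*-/- cells (exact permutation p = 0.1 in each, adjusted 0.109). With anti-IgM in *Ubqln1*-/- cells it was higher by 0.18 and overlapped rest (exact permutation p = 0.3, adjusted 0.3). Between libraries of the same number it was higher in 3 of 3 pairs there, by 0.08 to 0.31, with an exact sign-flip p of 0.25, the smallest that 3 pairs can give.

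**Figure D4:**
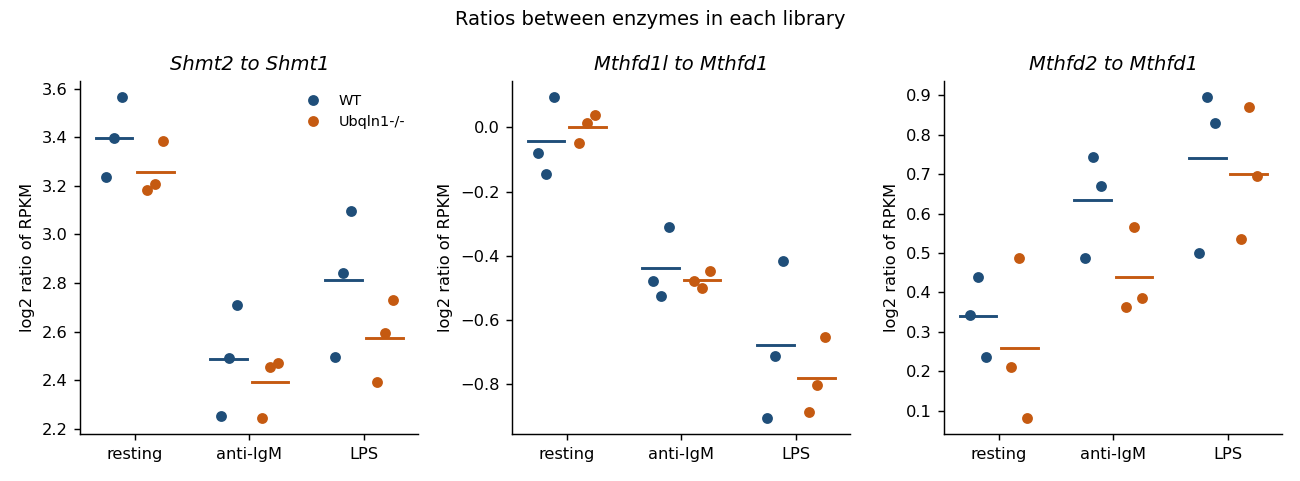
Log2 ratio of RPKM in each of the 18 libraries for *Shmt2* to *Shmt1*, *Mthfd1l* to *Mthfd1* and *Mthfd2* to *Mthfd1*, by condition and genotype, with a bar at the mean of 3. The first 2 ratios are lower in every stimulated library than in the resting libraries of its genotype, and the third is higher except in *Ubqln1*-/- cells with anti-IgM, where the groups overlap and each of the 3 same-numbered pairs is higher.

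WT and *Ubqln1*-/- cells were next compared in each condition, to see whether the enzymes depended on *Ubqln1*. None of the 8 was called, whether at rest, where 0.0565% of all tested genes were called, with anti-IgM (0.0989%) or with LPS (0.0424%). None of the 8 had an unadjusted p under 0.05 in edgeR in any condition, against 597, 728 and 557 genes of all those tested, and limma with voom and DESeq2 also called 0 of the 8. The groups overlapped for each of the 8 in every condition, while they did not overlap, in either direction, for 7.89% of all tested genes at rest, 11.4% with anti-IgM and 7.01% with LPS. The log2 fold changes ran from -0.19 to -0.02 at rest, from -0.22 to -0.01 with anti-IgM and from -0.11 to 0.12 with LPS. The least precise member was *Psat1*, with 95% intervals of -0.78 to 0.40 at rest and -0.72 to 0.41 with anti-IgM. With the replicate block 0 of 8 were called as well, against 0.346% of all tested genes at rest, 0.664% with anti-IgM and 0.883% with LPS. The *Psat1* intervals were then narrower, -0.40 to 0.07 at rest and -0.34 to 0.08 with anti-IgM. The share of all tested genes with an unadjusted p under 0.05 in the fit with the block is not given here. Of the 8, 1 had such a p in 1 condition. This was *Mthfd2* with anti-IgM, at a log2 fold change of -0.20 (95% interval -0.36 to -0.05, adjusted p = 0.29, edgeR), and without the block it was at -0.22 (95% interval -0.66 to 0.23). The summed level of the 3 plasma cell markers was lower in every *Ubqln1*-/- library than in every WT library of its condition. Most of the sum was *Jchain* (73.8 to 390 CPM). It was lower in every *Ubqln1*-/- library than in every WT library of its condition, at rest 116 to 143 against 158 to 390 CPM. *Prdm1* was likewise lower at rest (17.5 to 22.9 against 24.6 to 31.9 CPM) and with anti-IgM (13.05 to 13.8 against 18.9 to 23.1 CPM). It overlapped with LPS, and *Sdc1* overlapped between genotypes in all 3 conditions. None of the 3 markers was called between genotypes by edgeR.

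The responses to stimulation also did not differ detectably between genotypes. As interactions 0 of the 8 were called for anti-IgM and 0 of the 8 for LPS (edgeR, 0.0% of all tested genes for each), none had an unadjusted p under 0.05, against 140 and 220 of all tested genes, and limma with voom and DESeq2 called 0 as well. The differences between the log2 fold changes in *Ubqln1*-/- and WT cells ran from -0.14 for *Psph* to 0.09 for *Mthfd1* with anti-IgM, and from -0.06 for *Psph* to 0.16 for *Shmt1* with LPS. The 95% interval for *Shmt1* with LPS was -0.35 to 0.66. *Psat1* had the widest intervals, -0.78 to 0.85 with anti-IgM and -0.71 to 0.93 with LPS. With the replicate block those of *Psat1* were -0.28 to 0.35 and -0.22 to 0.41.

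The levels of the 8 were similar in their order over the libraries. Pearson's r of log2 CPM over 18 libraries was 0.904 to 0.995 among the 28 pairs of members, with a median of 0.965. The libraries share their stimulation groups and replicate numbers, so the coefficient describes mainly the 3 conditions. The genes most like a member over the same 18 libraries were *Noc4l*, *Slc7a6* and *Gm10390* for *Shmt1* (r 0.995 to 0.996) and *Eprs*, *Eif3c* and *Psat1* for *Shmt2* (0.995 to 0.997). For *Mthfd1* they were *Gart*, *C1qbp* and *Ddx27* (0.998 to 0.999), of which *Gart* encodes a purine synthesis enzyme that uses the formyl folate MTHFD1 supplies. For *Mthfd2* they were the unnamed Entrez gene 100505137, *Nop56* and *Cct7* (0.996). *Psat1* was most like Entrez 100047252 (1.000 after rounding), *Shmt2* and *Eif3c*, and *Mthfd1l* most like Entrez 100047252, *Psat1* and *Rab10* (0.989 to 0.991).

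Other genes of the pathway were taken as 8 lists of 66 genes, of which 54 were tested. Of these 33 were called higher and 7 lower with anti-IgM in WT cells, against 32.4% and 32.2% of all tested genes, and 32 and 8 in *Ubqln1*-/- cells, against 32.9% and 32.4%. With LPS 33 were called higher and 5 lower in WT cells, against 31.2% and 30.1%, and 36 and 6 in *Ubqln1*-/- cells, against 30.6% and 30.2%. The same shares of all tested genes stand beside the counts against rest by list below. The median log2 fold change over the 54 was 0.72 and 0.73 with anti-IgM and 0.57 and 0.61 with LPS. The 12 genes not tested, among them *Gldc*, *Mat1a*, *Bhmt* and *Aldh1l1*, had at most 9 counts in any library.

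Among 12 tested other folate enzymes 5 rose and 1 fell with anti-IgM in WT cells (median 0.36), and 7 rose and 2 fell with LPS (median 0.48). *Gart* and *Atic*, which use one-carbon units in purine synthesis, rose by 1.40 (SE 0.13) and 1.40 (SE 0.12) with anti-IgM and by 1.32 (SE 0.13) and 1.40 (SE 0.12) with LPS on the log2 scale. Of 3 tested folate carriers 2 rose with each stimulus in WT cells and 3 in *Ubqln1*-/- cells. *Slc19a1*, the reduced folate carrier of the plasma membrane, went from 15.6 ± 2.89 to 84.2 ± 13.6 RPKM with anti-IgM and 50.7 ± 9.99 RPKM with LPS (SD, n = 3), log2 fold changes of 2.43 (SE 0.17) and 1.70 (SE 0.16), and like *Shmt1* it was lower with LPS than with anti-IgM (-0.73, SE 0.15, adjusted p = 0.00133, edgeR). *Slc25a32*, which carries folate into mitochondria, rose by 0.77 (SE 0.11) and 0.88 (SE 0.11).

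The glycine cleavage system, which breaks down the glycine that SHMT forms, moved in both directions. *Gcsh* rose from 5.34 ± 1.25 to 21.4 ± 2.00 RPKM with anti-IgM and 18.4 ± 3.59 RPKM with LPS in WT cells (SD, n = 3), while *Amt* fell from 3.60 ± 0.340 to 0.957 ± 0.0324 and 1.52 ± 0.207 RPKM. *Dld*, which serves other enzyme complexes too, was the third tested gene and was called higher, and *Gldc*, the decarboxylase of the system, was not tested. All 3 were called in the same directions in *Ubqln1*-/- cells.

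In the methionine cycle list 5 of 8 tested genes rose and 1 fell with anti-IgM in WT cells, and 6 rose and 1 fell with LPS. *Mat2a*, which makes S-adenosylmethionine, rose from 92.6 ± 6.88 to 256 ± 28.4 and 245 ± 35.5 RPKM (SD, n = 3), and *Mtrr*, which reactivates methionine synthase, rose by 1.12 (SE 0.10) and 1.29 (SE 0.10). *Ahcyl1*, counted in this list, rose by 0.74 (SE 0.06) and 0.33 (SE 0.06), and whether its product acts in the cycle was not tested. Among 8 transsulfuration and serine-consuming genes 5 rose and 1 fell with anti-IgM, and 4 rose and 0 fell with LPS in WT cells. *Srr*, the serine racemase, rose by 1.46 (SE 0.10) and 1.44 (SE 0.10), and *Ptdss1*, which puts serine into phosphatidylserine, by 0.64 (SE 0.10) and 0.55 (SE 0.10).

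Among these lists the serine carriers had the most calls between the stimuli. With LPS against anti-IgM 2 of 7 tested carriers were higher and 3 lower in WT cells, against 17.4% and 15.0% of all tested genes. In *Ubqln1*-/- cells 1 was higher and 3 lower, against 16.8% and 14.5%. With anti-IgM 5 of the 7 rose and 2 fell, and with LPS 3 rose and 1 fell, in WT and in *Ubqln1*-/- cells. *Slc1a5*, which carries serine and glutamine, was at 142 ± 10.5 RPKM in resting WT cells, 327 ± 35.1 RPKM with anti-IgM and 159 ± 19.1 RPKM with LPS (SD, n = 3), and LPS against anti-IgM gave -1.04 (SE 0.09, adjusted p = 1.41e-07, edgeR). *Slc38a1* was at 52.1 ± 1.45, 97.1 ± 14.6 and 52.2 ± 2.54 RPKM (SD, n = 3), with -0.90 (SE 0.09, adjusted p = 3.46e-07, edgeR) between the stimuli. Neither was called with LPS against rest in WT cells (adjusted p = 0.135 and 0.988, edgeR). *Sfxn1*, a mitochondrial serine carrier, rose with both stimuli, by 1.34 (SE 0.13) and 1.51 (SE 0.13), and *Sfxn3* fell with both, by 1.08 (SE 0.11) and 1.54 (SE 0.11).

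Choline and betaine oxidation, another source of one-carbon units, gave 3 tested genes of which none rose, and 1, *Sardh*, fell with anti-IgM in both genotypes. *Sardh* and *Chdh* had group means of at most 0.147 RPKM. Of 10 genes of the ATF4 amino acid response, a program known to include serine synthesis genes, 9 rose and 0 fell with each stimulus in WT cells (medians 1.62 and 1.39), and 9 and 10 rose in *Ubqln1*-/- cells. *Atf4* rose by 0.93 (SE 0.11) and 1.05 (SE 0.11) and *Atf5* by 1.48 (SE 0.15) and 1.24 (SE 0.15) in WT cells. *Ddit3* rose by 1.29 (SE 0.12) with anti-IgM and by 0.34 (SE 0.12) with LPS, and was lower with LPS than with anti-IgM (-0.95, SE 0.11, adjusted p = 5.01e-06, edgeR). No list gene was called between genotypes or for an interaction.

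**Figure D5:**
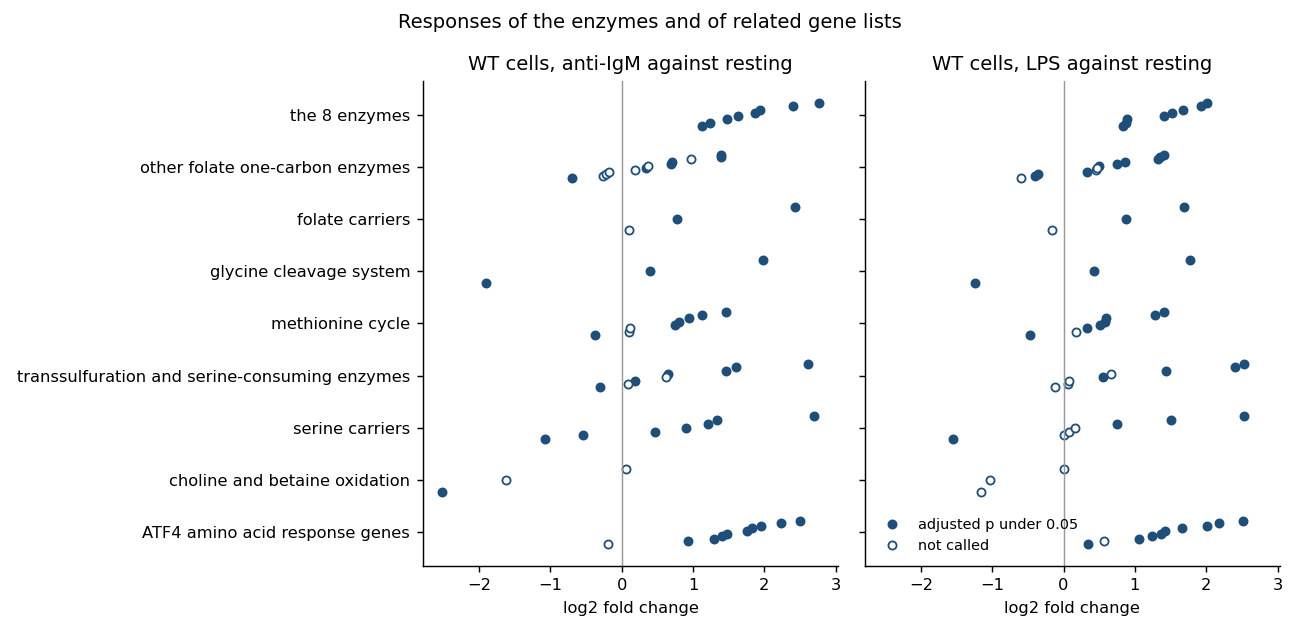
Log2 fold change (x axis) of the 8 enzymes and of the tested genes of each related list in WT cells, with anti-IgM on the left and LPS on the right. Filled points passed an adjusted p under 0.05, open points did not. The 8 enzymes are all filled and to the right of 0, and the ATF4 response genes have 9 filled points right of 0 with each stimulus.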

How the data were processed

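RNA-seq of 18 libraries was analysed. GSNAP was used by the authors for alignment to GRCm38, and they deposited 3 values per gene and library, the exonic read count (not normalized), the gene width and RPKM. The deposited RPKM equalled the count divided by the width and by 1 total per library, of which the counts were 83.8% to 88.4%. It was not tested, and RPKM given here was recomputed with TMM-scaled library sizes (factors 0.958 to 1.038). The counting program was not given in the sources used here. Replicates called 1 have no number in their labels and were numbered by elimination beside 2 and 3.

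The members and lists were chosen with earlier results of these data known. All members are named, with at most 4 genes of each list (smallest adjusted p with either stimulus in WT cells), any list gene called between genotypes, and the 3 genes most correlated with each member, which are not reported here for *Phgdh* and *Psph*. *Dld* and the untested genes were named after their values were seen. Symbols and promoters came from RefSeq tables of GRCm38.p6, which named 89.1% of genes, and exons from GENCODE.

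Counts were fitted with edgeR 4.0.16 (TMM, filterByExpr, quasi-likelihood test, 1 term for each of 6 groups, no replicate block) in R 4.3.3. The SE is the absolute log2 fold change divided by the square root of F, and 95% intervals use the t quantile at the test's degrees of freedom. Correlations used log2 CPM with a prior count of 2. Scripts were tested on simulated counts. No libraries were duplicates by a chi-square check. Intervals and p-values cover the spread between these libraries.

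The deviations of same-numbered libraries from their group means correlated at 0.205 to 0.516 over all 3 pairs in each stimulation comparison and in the anti-IgM and LPS genotype comparisons, so the numbers were taken to pair libraries there. At rest, between genotypes, 1 pair was at 0.0826, and over the interactions the lowest was 0.055. The rule asked for every pair to be over 0.1, so the numbers were not taken to pair them. Over all groups, however, 43 of 45 same-number pairs were over 0.1, and all 18 libraries were closest to those of their own number. The mean correlation was 0.266 for the same number, so these comparisons may be paired as well. That for other numbers was -0.132 and is no separate evidence, because deviations from a group mean cancel within the group. Which libraries pair was taken from the data, since the labels do not say what a number marks. For its RNA-seq values of *Myc* and *Ccnd2* the paper gives 3 independent experiments and paired t tests. Alternatives were limma 3.58.1 with voom, DESeq2 1.42.0, RLE, other filters, the block, only the groups compared, the study's thresholds and leaving out each library.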

Additional observations from a re-analysis of the deposited data

How the results depend on the processing

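All 8 enzymes stayed called higher with each stimulus in both genotypes under limma with voom, DESeq2, RLE normalization, both other filters on low counts, the replicate block, the fit on only the groups compared and each left-out library, and 0 of 8 were called between genotypes or for an interaction under the same settings. At the study's thresholds the calls were 2 with anti-IgM in each genotype, 1 with LPS in WT cells and 2 with LPS in *Ubqln1*-/- cells, and 0 between the stimuli in each genotype, by the construction of a higher threshold.

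The comparison of LPS with anti-IgM depended on the setting. The 3 calls in WT cells became 6 with the replicate block (20.4% of all tested genes called lower). They became 1 with only the groups compared (1581 of 13716 genes lower), and ran from 1 to 6 when a library was left out (12.4% to 14.6%). The 2 calls in *Ubqln1*-/- cells became 3 with RLE normalization (2096 of 14161 genes lower), no filter (1901 of 21150) and the stricter filter (1910 of 12230). They became 4 with DESeq2 (2135 of 14160), 6 with the block (19.6%) and 5 with only the groups compared (2285 of 13613). When a library was left out they ran from 1 to 4 (11.4% to 12.5%). The cause was not tested. The replicate block changed no other call of a member. For KO against WT at rest, where the numbers were not taken to pair the libraries, the block left 0 of 8 called. With 3 pairs an exact sign-flip test cannot go below p = 0.25. The mean of the paired differences in log2 ratio equals the difference of the group means, so no direction could change under it. Of 448 list counts under the alternatives 19 moved by more than 1.5 times, and with Spearman's correlation the 3 genes nearest to 7 of the 8 members changed.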

Other observations

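Within the groups, libraries with the same replicate number held similar ranks for the 8 enzymes. Of 48 sets of 1 gene in 1 group, the library numbered 1 was the lowest of the 3 in 40 and the library numbered 2 the highest in 44. The 8 genes are correlated over the libraries, so these sets are not independent, and what a number marks is not in the labels.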
